A study of Rattus norvegicus with 32 samples.

Results

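The genes described are the 10 members of the NRF2 antioxidant response set: the transcription factor Nfe2l2 (NRF2 itself), its inhibitor Keap1, and the effector genes Slc7a11, Gclc, Gclm, Gsr, Txnrd1, Srxn1, Nqo1 and Hmox1. They were set by name, with earlier results of these data known, and each symbol matched 1 gene of the 32623 quantified per library. RNA was sequenced from liver sinusoidal endothelial cells (LSECs), the fenestrated endothelium that lines the hepatic sinusoids, isolated from male rats by liver perfusion, digestion and an iodixanol gradient. The CCl4 experiment holds Wistar Han rats in 4 groups: healthy untreated rats (n = 6), and rats that inhaled the hepatotoxin carbon tetrachloride (CCl4) for 2 weeks (acute injury, n = 5), 6 weeks (fibrosis, n = 5) or 12 to 14 weeks (cirrhosis, n = 6). The labels of the cirrhosis group say only that its rats received CCl4, and its duration comes from the description of the study. Drinking water was supplemented with phenobarbital in the CCl4 model, an inducer of liver drug metabolism, and whether the healthy rats drank it is not given in the sources used here. Cells were taken days after the last dose of toxicant. The thioacetamide (TAA) experiment holds 5 libraries labelled control and 5 labelled TAA control. Replicate numbers of the latter are those of the sample titles, and for 4 of the 5 the sample descriptions give a different number. Labels and methods do not settle which of these groups received TAA or whether the strain was Wistar Han or Sprague-Dawley, so its differences are given by label alone.

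NRF2 is a basic leucine zipper factor that KEAP1 holds in the cytoplasm and marks for degradation through a CUL3 ubiquitin ligase. Electrophiles and oxidants modify cysteines of KEAP1, newly made NRF2 then escapes to the nucleus, pairs with a small MAF protein and binds antioxidant response elements near genes of glutathione, thioredoxin, NADPH and haem metabolism. In endothelium the pathway is known for limiting oxidant injury. Its activity is set mainly by protein stability, so that the mRNA of Nfe2l2 is not a reading of NRF2 activity, and neither protein nor activity was measured here.

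All libraries held 25646531 to 46464289 counts, and each library of a group was taken as 1 sample, so that p-values measure the spread between these libraries. Levels are CPM, counts scaled to a common library size, with TMM factors (trimmed mean of M-values) set within each experiment. CPM does not correct for gene length, so levels were not compared between genes. None of the 11 LSEC markers stood at 0 in all libraries of a group. The same held for the hepatocyte list, so this does not show what the cells were. The LSEC markers summed to 3988 to 4776 CPM in acute injury and 2849 to 3746 CPM in fibrosis. In healthy LSECs they summed to 15120.2 to 30193 CPM and in cirrhotic LSECs to 16331 to 20699.7 CPM. Against healthy LSECs 9 of the 11 fell in acute injury (median log2 fold-change -3.12) and 10 in fibrosis (median -2.87). The scavenger receptor Stab1 stood at 84.0 to 218 CPM in acute injury against 2847 to 7161 CPM in healthy LSECs, whereas the endothelial cadherin Cdh5 stood at 1324 to 2154 against 775 to 1762 CPM. Hepatocyte markers summed to 1399 to 30221 CPM in healthy, 153 to 963 in acute, 1426 to 5711 in fibrotic and 3242 to 15537 CPM in cirrhotic LSECs. Kupffer cell and macrophage markers summed to 333 to 3473, 77.9 to 232, 33.2 to 211 and 797 to 2828 CPM in the same order, with Timd4 at 0 in acute injury and fibrosis. Immediate-early genes, which also respond to tissue dissociation, summed to 29055 to 60431, 929 to 4089, 3581 to 6019 and 18204 to 37029 CPM. Stellate cell and fibroblast markers summed to 287 to 788 CPM in healthy LSECs and 1319.8 to 2136 CPM in acute injury, mostly Reln at 1305 to 2123 CPM, which was the 1 of 9 tested that rose, while 5 fell (median log2 fold-change -2.55). They summed to 1363 to 1843 CPM in fibrosis, where 4 of 9 rose and 3 fell (median 1.16), and to 624 to 1926 CPM in cirrhosis, where 8 of 10 rose and none fell (median 2.23). Lymphocyte, neutrophil and cholangiocyte markers summed at most to 329.7, 45.3 and 108 CPM in any library of the CCl4 experiment. In bulk RNA, fewer cells of a type and less RNA of a gene per cell cannot be told apart, and the part of these shifts in the results was not tested.

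**Figure D1:**
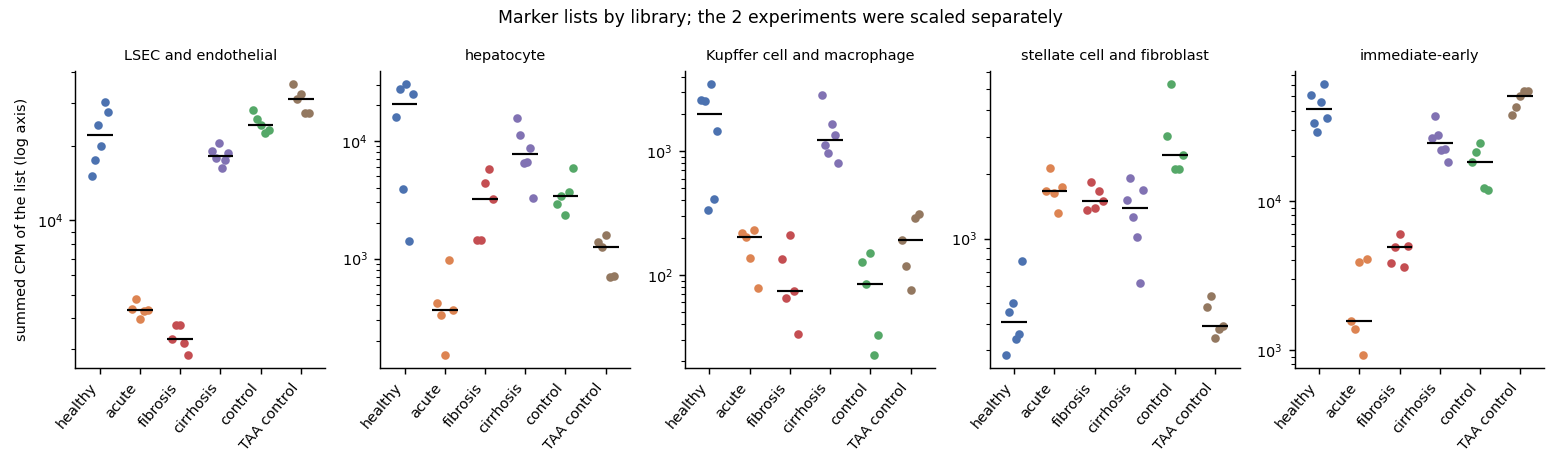
Summed CPM of the marker lists in each library (log axes), with a bar at the group median. The LSEC list is low in all 10 libraries of acute injury and fibrosis, and the healthy libraries spread from 1399 to 30221 CPM in the hepatocyte list.

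Most effectors of the pathway were above their healthy level after 2 and 6 weeks of CCl4, up to 409.9-fold, and in cirrhosis 6 of the 8 were not called against it. In mean level Slc7a11, Gclm and Txnrd1 ordered as healthy, cirrhosis, acute injury and fibrosis from low to high, Gclc and Nqo1 as healthy, cirrhosis, fibrosis and acute injury, and Gsr, Srxn1 and Hmox1 as cirrhosis, healthy, acute injury and fibrosis. Healthy and cirrhotic LSECs were called different in Slc7a11 and Gsr of these 8, and acute injury and fibrosis in Slc7a11, Gclm and Hmox1. A gene was called when its Benjamini-Hochberg adjusted p from limma-voom, over all genes tested, was under 0.05 and its fold-change exceeded 1.5. In acute injury 7 of the 10 genes rose and none fell against healthy LSECs, beside 73.3% of all 14317 genes tested being called, 35.5% higher and 37.9% lower. In fibrosis 9 rose and none fell, beside 70.2% of 14524 genes, 35.3% higher and 34.9% lower. In cirrhosis 2 rose (Nfe2l2 and Slc7a11) and 2 fell (Keap1 and Gsr), beside 51.8% of 14789 genes, 27.1% higher and 24.7% lower. The rise of 8 of 10 stellate cell and fibroblast markers in cirrhosis stands beside these 4 calls, and its part in them was not tested. All libraries of a stage lay on 1 side of all healthy ones in 7, 8 and 3 of the 10 genes, as did 60%, 58.8% and 27.2% of all genes tested. The median log2 fold-change of the 10 genes was 1.71, 2.15 and 0.34 in these comparisons, beside -0.09, -0.03 and 0.07 over all genes tested. The 3 comparisons share the same healthy libraries. Over all genes acute injury and fibrosis also stood close, with 11% of 13933 genes called between them. Whether the groups were prepared or sequenced together is not stated in the methods of the study. Such differences cannot be told apart from stage here. Without TMM scaling the median of all genes moved up by 0.41, 0.40 and 0.34, so that a log2 fold-change against healthy LSECs is relative to that choice, and 9, 9 and 5 of the genes were then called higher and 0, 0 and 1 lower. Over all genes the share of calls that were higher went from 48.4% to 58.2% in acute injury. It went from 50.3% to 60.9% in fibrosis and from 52.3% to 71.3% in cirrhosis.

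**Figure D2:**
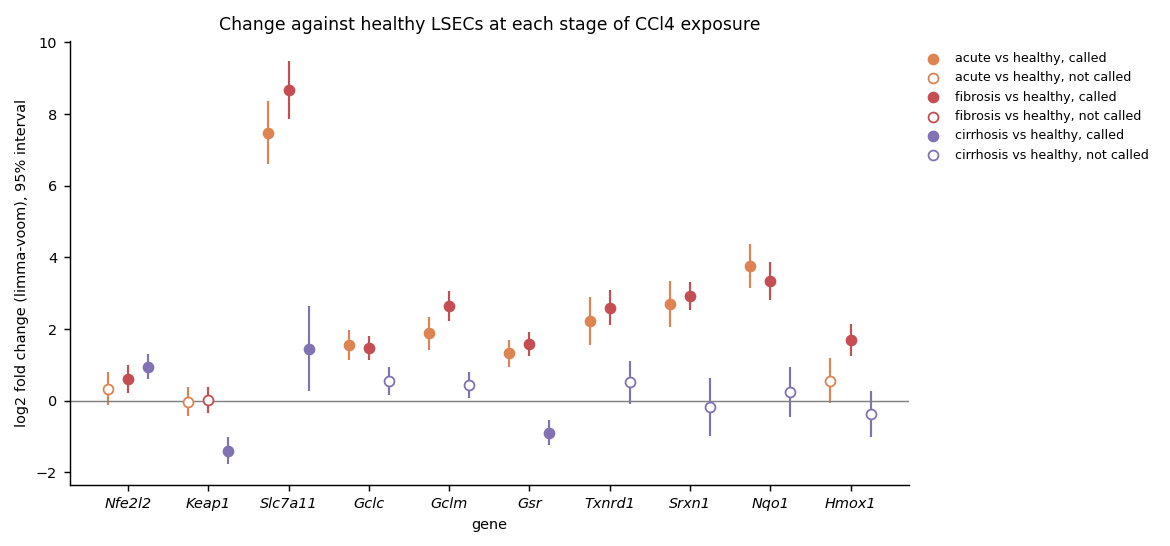
Log2 fold-change of each gene against healthy LSECs in acute injury, fibrosis and cirrhosis, with its 95% interval from limma-voom and filled points where called. The 8 effectors lie above 0 in acute injury and fibrosis, Slc7a11 highest at 7.48 and 8.68, and the filled cirrhosis points are Nfe2l2, Slc7a11, Keap1 and Gsr.

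Promoter sequence was available for 8 of the 10 genes (RefSeq, GRCr8, 250 bases before to 50 after each start, 9 windows), while the reads were mapped to Rnor_6.0. Windows were searched on both strands for the core of the antioxidant response element, TGACNNNGC, and for its variant TGAGNNNGC. With TCA in the place of NNN the first also spells TGACTCA, the site of AP-1. The variant then spells TGAGTCA, the same site read on the other strand. Before the start, 3 of these 8 genes held a match, Gclm and Txnrd1 of TGACNNNGC and Srxn1 of TGAGNNNGC (2 matches). Of 33469 rat windows 10.1% and 14.2% held a match there, and 22.8% held either. These shares are per window and not per gene. Txnrd1 was the gene with 2 windows, and its match lay in 1 of them, from whose start its distance below is counted. Across the start lay a further match in Srxn1 (TGAGTCAGC, which holds that AP-1 site), and after the start another in Nfe2l2 (TGACGCCGC). No match was found before the start in the windows of Nfe2l2, Keap1, Nqo1, Gclc and Slc7a11, which says only that these letters are not there. The 3 genes with a match rose in acute injury and fibrosis, as did Nqo1, Gclc and Slc7a11 without one. The matches before the start are shown with up to 30 bases on each side, 5′ to 3′ on the strand of the gene. In each sequence the capitals mark the match. The match lies on the opposite strand in all 4, so that the capitals read as its reverse complement.
Gclm (chr2:213031933-213032001, plus strand, 172 bases before the start): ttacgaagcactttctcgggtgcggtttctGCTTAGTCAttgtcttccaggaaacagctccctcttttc
Txnrd1 (chr7:22755944-22756012, minus strand, 78 bases before the start): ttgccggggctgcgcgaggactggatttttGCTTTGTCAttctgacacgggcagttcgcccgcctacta
Srxn1 (chr3:161064664-161064732, plus strand, 118 bases before the start): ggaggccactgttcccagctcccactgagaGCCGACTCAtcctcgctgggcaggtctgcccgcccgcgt
Srxn1 (chr3:161064765-161064811, plus strand, 17 bases before the start): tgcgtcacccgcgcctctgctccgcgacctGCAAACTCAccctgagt

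The 2 regulators moved apart in cirrhosis. Nfe2l2 (ENSRNOG00000001548) read 268 to 518 CPM (median 353, n = 6) in healthy LSECs, 461, 387, 486, 334 and 617 CPM in acute replicates 1, 2, 3, 4 and 8, 542, 495, 634, 459.6 and 516 CPM in fibrosis replicates 12, 13, 15, 16 and 17, and 613 to 764 CPM (median 699.6, n = 6) in cirrhosis. Its medians climbed through the stages, each group overlapping the one before it, and only the cirrhotic libraries stood wholly above the healthy ones. Against healthy LSECs the log2 fold-change (± SE) was 0.34 ± 0.22 (adjusted p = 0.171) in acute injury, not called, 0.60 ± 0.18 (adjusted p = 0.0103) in fibrosis and 0.95 ± 0.16 (adjusted p = 5e-04) in cirrhosis, a 1.93-fold rise. The fibrosis call rested on a fold-change of 1.52 that dropped under 1.5 in 7 of 21 alternatives, among them, on the log2 scale, edgeR (0.57), a single fit over the 4 groups (0.54) and the fits without healthy replicate 1, 2 or 4 or fibrosis replicate 15 (0.51 to 0.55). Keap1 (ENSRNOG00000020878) read 47.2 to 89.6 CPM (median 74.0, n = 6) in healthy LSECs, 78.6, 75.1, 67.3, 55.1 and 70.1 CPM in acute injury and 68.9, 68.4, 69.8, 68.7 and 72.2 CPM in fibrosis. In cirrhosis it read 23.9 to 32.2 CPM (median 26.1, n = 6), and all 6 cirrhotic libraries lay under all 16 others. The log2 fold-changes of Keap1 were -0.02 ± 0.18 (adjusted p = 0.909) and 0.03 ± 0.16 (adjusted p = 0.887) in acute injury and fibrosis, with 95% intervals of -0.42 to 0.37 and -0.33 to 0.38, and -1.40 ± 0.18 (adjusted p = 0.000114) in cirrhosis, a level 2.64-fold lower. From fibrosis to cirrhosis Keap1 changed by -1.37 ± 0.08 (adjusted p = 1.6e-08), while Nfe2l2 passed the p threshold with a log2 difference of 0.40 ± 0.09 (adjusted p = 0.00181) that stayed under the 1.5-fold limit.

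**Figure D3:**
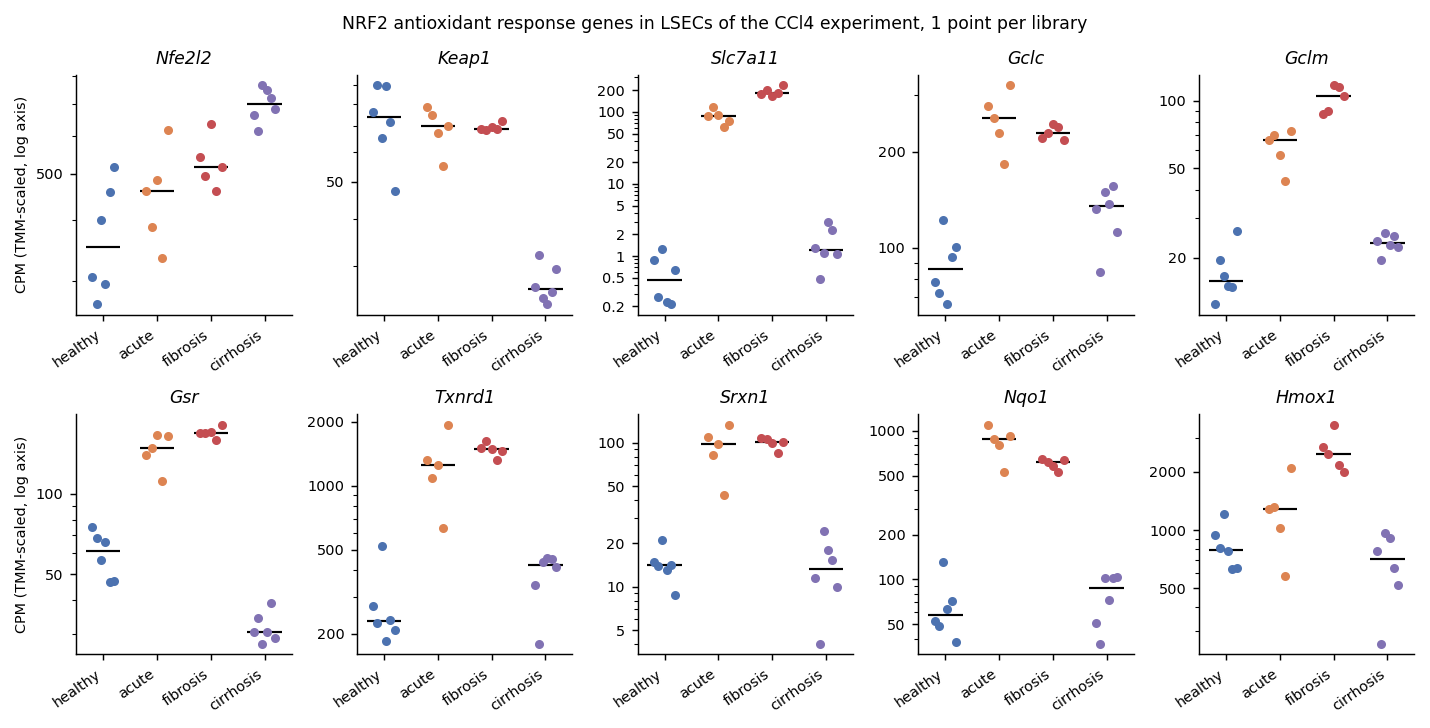
TMM-scaled CPM of the 10 genes in each of the 22 libraries of the CCl4 experiment (log axes, a scale per gene), with a bar at the group median. Of the 8 effectors, 7 form a raised pair of groups at acute injury and fibrosis and Hmox1 is raised above all healthy libraries in fibrosis alone, whereas Nfe2l2 is highest and Keap1 lowest in cirrhosis.

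Slc7a11 (ENSRNOG00000010210), the cystine and glutamate exchanger that brings in the cystine from which glutathione is made, had the largest fold-change of the 10 genes in acute injury and in fibrosis. Its level was 0.215 to 1.27 CPM (median 0.460, n = 6) in healthy LSECs, where the counts behind it were only 6 to 31 per library. In acute injury it read 87.7, 117, 90.7, 62.1 and 75.7 CPM and in fibrosis 174, 202, 164, 184 and 232 CPM. These groups overlapped neither the healthy libraries nor each other, with fibrosis the highest. In cirrhosis Slc7a11 read 0.476 to 2.98 CPM (median 1.21, n = 6), with 24 to 138 counts per library, and overlapped the healthy range. The log2 fold-change against healthy LSECs was 7.48 ± 0.41 (adjusted p = 1.48e-08) in acute injury and 8.68 ± 0.37 (adjusted p = 4.65e-09) in fibrosis, or 179-fold and 409.9-fold, ratios that rest on few healthy counts. The cirrhosis value was 1.45 ± 0.55 (adjusted p = 0.0357), and this call was lost with a single library left out in 6 cases (cirrhosis replicate 1, 4 or 5, or healthy replicate 2, 4 or 5), with adjusted p of 0.0506 to 0.0817. Between fibrosis and acute injury the gene rose by a log2 fold-change of 1.24 ± 0.15 (adjusted p = 0.00302), and from fibrosis to cirrhosis it changed by -7.18 ± 0.32 (adjusted p = 1.7e-09), a level 145-fold lower.

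The subunits of glutamate-cysteine ligase, the enzyme that sets the rate of glutathione synthesis, rose together. Gclc (ENSRNOG00000006302), the catalytic subunit, read 66.7 to 122 CPM (median 85.8, n = 6) in healthy LSECs, 277, 254, 229, 183 and 322 CPM in acute injury, 221, 228, 244, 239 and 218 CPM in fibrosis and 83.8 to 156 CPM (median 135, n = 6) in cirrhosis. Acute injury and fibrosis were the high groups, with no overlap with healthy or cirrhotic LSECs, and were not called different (log2 fold-change -0.04 ± 0.13, adjusted p = 0.861, 95% interval -0.31 to 0.24). Compared with healthy LSECs the log2 fold-change was 1.55 ± 0.19 (adjusted p = 1.33e-05), 1.47 ± 0.16 (adjusted p = 4.33e-06) and 0.55 ± 0.19 (adjusted p = 0.0226) in acute injury, fibrosis and cirrhosis, the last under the 1.5-fold limit with overlapping groups. Gclm (ENSRNOG00000013409), the modifier subunit that raises the efficiency of the enzyme, read 12.5 to 26.3 CPM (median 15.8, n = 6) in healthy LSECs, 66.8, 70.4, 57.5, 43.8 and 73.5 CPM in acute injury, 86.8, 90.2, 117, 115 and 105 CPM in fibrosis and 19.5 to 25.7 CPM (median 23.4, n = 6) in cirrhosis. Unlike Gclc it separated fibrosis from acute injury, all 5 fibrotic libraries lying above all 5 acute ones. On the log2 scale it rose over healthy LSECs by 1.88 ± 0.21 (adjusted p = 6.38e-06) in acute injury, 2.64 ± 0.19 (adjusted p = 1.76e-07) in fibrosis, read 0.45 ± 0.17 (adjusted p = 0.0361) in cirrhosis, under the 1.5-fold limit, and between fibrosis and acute injury it was 0.82 ± 0.14 (adjusted p = 0.00627). Gsr (ENSRNOG00000014915), the reductase that returns oxidised glutathione to its reduced form with NADPH, read 47.0 to 74.9 CPM (median 61.2, n = 6) in healthy LSECs, 139, 147, 165, 112 and 164 CPM in acute injury, 168, 168, 169, 158 and 180.3 CPM in fibrosis and 27.6 to 39.0 CPM (median 30.5, n = 6) in cirrhosis. Its 4 groups ordered as cirrhosis, healthy, acute injury and fibrosis, and only the last 2 overlapped. Gsr rose by 1.32 ± 0.18 (adjusted p = 2.49e-05) in acute injury and 1.58 ± 0.15 (adjusted p = 1.86e-06) in fibrosis on the log2 scale and fell below its healthy level in cirrhosis, at -0.89 ± 0.16 (adjusted p = 0.000742), where it was 1.85-fold lower. Without TMM scaling the cirrhosis value was -0.54 (adjusted p = 0.00789), under the 1.5-fold limit.

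In the thioredoxin arm both genes rose in acute injury and fibrosis. Txnrd1 (ENSRNOG00000009088), the cytosolic thioredoxin reductase, read 186 to 518 CPM (median 229, n = 6) in healthy LSECs, 1327, 1094, 1249, 630.0 and 1940.2 CPM in acute injury, 1507, 1634, 1489, 1329.8 and 1460.2 CPM in fibrosis and 180.3 to 458 CPM (median 425, n = 6) in cirrhosis. The acute group was the widest, from its replicate 4 at 630.0 CPM to its replicate 8 at 1940.2 CPM, and still lay above every healthy library. The log2 fold-change of Txnrd1 was 2.23 ± 0.30 (adjusted p = 2.99e-05), 2.59 ± 0.23 (adjusted p = 8.4e-07) and 0.51 ± 0.28 (adjusted p = 0.132) in acute injury, fibrosis and cirrhosis. The cirrhosis value was called without cirrhosis replicate 2 (0.70, adjusted p = 0.0273) and without healthy replicate 3 (0.71, adjusted p = 0.0206), the libraries with the lowest and the highest Txnrd1 of their groups, and without TMM scaling (0.86, adjusted p = 0.0105). Against the 2 healthy libraries with the lowest hepatocyte marker sums, replicates 3 and 5, it was 0.075 (adjusted p = 0.887). Srxn1 (ENSRNOG00000031167), which repairs over-oxidised peroxiredoxins, read 8.76 to 21.1 CPM (median 14.0, n = 6) in healthy LSECs, 109, 82.2, 98.1, 43.5 and 133 CPM in acute injury, 108, 107, 99.5, 84.7 and 100.4 CPM in fibrosis and 4.03 to 24.5 CPM (median 13.3, n = 6) in cirrhosis. Acute and fibrotic libraries overlapped each other and lay above all healthy and cirrhotic ones, which overlapped. Its log2 fold-change was 2.70 ± 0.30 (adjusted p = 4.67e-06) in acute injury, 2.92 ± 0.18 (adjusted p = 4.67e-08) in fibrosis and -0.18 ± 0.37 (adjusted p = 0.693) in cirrhosis, where the 95% interval ran from -0.99 to 0.62.

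Nqo1 (ENSRNOG00000012772), a quinone reductase much used as a readout of NRF2, was among the strongest risers. It read 38.2 to 131 CPM (median 58.0, n = 6) in healthy LSECs, 1101, 885, 802, 529 and 932 CPM in acute injury, 647, 622, 581, 529 and 637 CPM in fibrosis and 37.0 to 105 CPM (median 87.9, n = 6) in cirrhosis. Its acute and fibrotic libraries were all higher than every healthy and cirrhotic library. The log2 fold-change of Nqo1 was 3.77 ± 0.28 (adjusted p = 1.81e-07) in acute injury, a 13.6-fold rise, 3.34 ± 0.25 (adjusted p = 2.11e-07) in fibrosis, 10.1-fold, and 0.24 ± 0.32 (adjusted p = 0.535) in cirrhosis (95% interval -0.45 to 0.94). Hmox1 (ENSRNOG00000014117), the inducible haem oxygenase that releases iron, carbon monoxide and biliverdin from haem, followed another course. It read 631 to 1206 CPM (median 793, n = 6) in healthy LSECs, 1288, 1325, 1028, 580.4 and 2106 CPM in acute injury, 2687, 2484, 3502, 2166 and 1987 CPM in fibrosis and 259.9 to 966 CPM (median 708, n = 6) in cirrhosis. Acute replicate 4 lay below every healthy library, acute replicate 8 inside the range of fibrosis, and fibrosis was the only group wholly above the healthy and cirrhotic ones. Compared with healthy LSECs Hmox1 had a log2 fold-change of 0.55 ± 0.29 (adjusted p = 0.0995) in acute injury, not called, 1.70 ± 0.20 (adjusted p = 1.02e-05) in fibrosis and -0.37 ± 0.30 (adjusted p = 0.294) in cirrhosis. The acute value was called without acute replicate 4 (0.82, adjusted p = 0.00963), without healthy replicate 3 (0.71, adjusted p = 0.0411), by DESeq2 (0.71, adjusted p = 0.0299), without a low-count filter (0.66, adjusted p = 0.0474) and without TMM scaling (0.96, adjusted p = 0.00329). It was 0.35 without acute replicate 8 and 0.15 (adjusted p = 0.521) with the replicate number as a block. Whether these numbers pair the libraries is not known. Between fibrosis and acute injury Hmox1 rose by 1.18 ± 0.29 (adjusted p = 0.02).

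Fewer of the 10 genes were called between acute injury and fibrosis than between either of these stages and cirrhosis. From acute injury to fibrosis 3 of the 10 genes rose (Hmox1, Gclm and Slc7a11) and none fell, beside 11% of 13933 genes tested, 10.2% higher and 0.732% lower. Gclm and Slc7a11 did not overlap, 2 of the 10, beside 17.2% of all genes. Nqo1 had the lowest value, -0.38 ± 0.16 (adjusted p = 0.114), and was not called. Txnrd1, at 0.41 ± 0.23 (adjusted p = 0.233), was called without acute replicate 8 (0.59, adjusted p = 0.0386). From fibrosis to cirrhosis 9 of the 10 fell, beside 63.8% of 15199 genes, 29.5% lower and 34.3% higher, and the groups did not overlap in those 9, beside 63.3% of all genes. The 8 effectors ranged from -0.87 in Gclc to -7.18 in Slc7a11 on the log2 scale, with Gclm at -2.15 ± 0.10 (adjusted p = 3.16e-09), Gsr at -2.41 ± 0.09 (adjusted p = 4.99e-10), Nqo1 at -3.04 ± 0.27 (adjusted p = 6.58e-07) and Hmox1 at -2.01 ± 0.31 (adjusted p = 8.03e-05). The thioredoxin arm fell by 2.03 ± 0.22 (adjusted p = 3.96e-06) in Txnrd1 and 3.07 ± 0.33 (adjusted p = 3.93e-06) in Srxn1, and Gclc by 0.87 ± 0.14 (adjusted p = 0.00013). The median of the 10 genes was -2.09, beside 0.04 over all genes. Against acute injury, cirrhotic LSECs were lower in 9 genes and higher in Nfe2l2, beside 69.3% of 15022 genes, 31.8% lower and 37.6% higher, and 8 of the 10 did not overlap, beside 65.9% of all genes. The Nfe2l2 value was 0.64 ± 0.14 (adjusted p = 0.00109), and it fell under the 1.5-fold limit without acute replicate 2 (0.57), without acute replicate 4 (0.53) and without TMM scaling (0.55). Hmox1, at -0.90 ± 0.36 (adjusted p = 0.0336), lost its call without any 1 of acute replicates 1, 2 and 8 or cirrhosis replicates 2, 5 and 6 (adjusted p of 0.0523 to 0.0969) and without a low-count filter (adjusted p = 0.0622). The LSEC, Kupffer cell and immediate-early sums above were also higher in every cirrhotic than in every fibrotic library, the hepatocyte sum with overlap, 6 of 10 stellate cell and fibroblast markers rose and 2 fell, and the part of these shifts was not tested.

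Some libraries stood low or high across the set. Acute replicate 4 was the lowest of its group in all 10 genes, and 26.6% of 15578 genes in the CCl4 experiment had their lowest acute value there. Acute replicate 8 was the highest in 6 genes, against 31% of all genes. In cirrhosis, replicate 2 was the lowest in 8 of the 10 (23.5% of all genes), and the exceptions were Keap1 and Gsr. Healthy replicate 3 was the highest of its group in 6 (21.3% of all genes). Leaving out 1 library at a time gave 7 to 8 genes called in acute injury, 8 to 9 in fibrosis and 3 to 6 in cirrhosis against healthy LSECs. The coefficient of variation within a group of either experiment was lowest in fibrosis, at 2.20% for Keap1, 4.66% for Gsr and 4.92% for Gclc, and highest for Slc7a11 in healthy LSECs, at 73.0%. Only healthy replicates 3 and 5 held under 5000 CPM of hepatocyte markers, at 3891 and 1399 CPM. Against these 2 alone, a choice made after the marker sums were seen, 7, 8 and 3 of the 10 genes were called in acute injury, fibrosis and cirrhosis, Nfe2l2 in fibrosis (0.37, adjusted p = 0.0558) and Slc7a11 in cirrhosis (1.34, adjusted p = 0.26) being the calls lost. Nqo1 in cirrhosis then read -0.39 (adjusted p = 0.462). The share of all genes called was not taken for these fits or for those with 1 library left out.

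Around the 10 genes, 77 other genes of the pathway, listed by function, did not rise as a body. In acute injury 21 of 75 tested rose and 37 fell (median log2 fold-change -0.74), beside 35.5% of all genes higher and 37.9% lower (median -0.09). In fibrosis 21 of 77 rose and 34 fell (median -0.33), beside 35.3% and 34.9% (median -0.03), and in cirrhosis 7 of 76 rose and 39 fell (median -0.64), beside 27.1% and 24.7% (median 0.07). The same shares of all genes stand beside the counts of the single lists, which hold 7 to 17 genes each. Without TMM scaling these counts were 24 higher and 28 lower, 29 and 29, and 16 and 24. The fibrosis median turned to 0.07, beside 0.37 over all genes. Over all genes that scaling gave 6132 higher and 4408 lower in acute injury, 6238 and 4001 in fibrosis and 5724 and 2303 in cirrhosis. The genes tested numbered 14317, 14524 and 14789. In single lists of acute injury the genes that fell numbered 2 of 10 in the thioredoxin and peroxiredoxin list and 2 of 8 in haem and iron handling without TMM, where the main counts were 5 and 4. Partners and regulators of NRF2 were the list with the highest median in acute injury, 0.72, as 7 of 13 rose and 4 fell. Bach1, a repressor that competes with NRF2 for its elements, rose from 57.9 ± 14.5 CPM (SD, n = 6) to 576 ± 147 CPM (SD, n = 5), a log2 fold-change of 3.36 ± 0.22 (adjusted p = 5.93e-08), and by 3.41 ± 0.18 (adjusted p = 1.7e-08) in fibrosis. Sqstm1, the p62 adaptor that can bind KEAP1, rose by 0.94 ± 0.22 (adjusted p = 0.00198) and 1.45 ± 0.20 (adjusted p = 4.65e-05) and fell by 0.96 ± 0.21 (adjusted p = 0.00232) in cirrhosis. Mafg, a small MAF partner, rose by 0.85 ± 0.20 (adjusted p = 0.00197) and 0.93 ± 0.19 (adjusted p = 0.000685), whereas its relative Mafk had the largest fall of the list in acute injury, -1.85 ± 0.25 (adjusted p = 2.82e-05). In fibrosis the largest fall was that of Dpp3, a peptidase that can bind KEAP1, -1.59 ± 0.17 (adjusted p = 4.36e-06).

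Among other genes of glutathione synthesis and use, 3 of 11 rose and 6 fell in acute injury and 4 of 12 rose and 6 fell in fibrosis. Ggt5, a gamma-glutamyl transferase, had the largest fall, from 549.7 ± 182 CPM (SD, n = 6) to 9.03 ± 4.23 CPM (SD, n = 5) (-5.97 ± 0.35, adjusted p = 2.72e-08) and to 10.2 ± 2.45 CPM (SD, n = 5) in fibrosis. The glutathione peroxidases Gpx8, in acute injury (2.56 ± 0.33, adjusted p = 1.98e-05), and Gpx2, in fibrosis (5.13 ± 0.82, adjusted p = 0.000125, from 0.102 ± 0.106 CPM (SD, n = 6) to 3.81 ± 3.54 CPM (SD, n = 5)), had the largest rises. Slc3a2, the heavy chain that carries SLC7A11 to the membrane, was not called in acute injury (0.15 ± 0.21, adjusted p = 0.518) or fibrosis (0.23 ± 0.18, adjusted p = 0.251), and its level was 762 ± 167 CPM (SD, n = 6) in healthy LSECs. In the thioredoxin and peroxiredoxin list 3 of 10 rose and 5 fell in acute injury. Txnip, which binds and inhibits thioredoxin, had its largest fall (-3.67 ± 0.16, adjusted p = 3.01e-09), the mitochondrial peroxiredoxin Prdx3 its largest rise (1.27 ± 0.22, adjusted p = 0.000182), and Txn1, thioredoxin itself, read 0.38 ± 0.17 (adjusted p = 0.052), not called. Of the enzymes that supply NADPH 2 of 7 rose and 3 fell, led by malic enzyme Me1 at 3.12 ± 0.22 (adjusted p = 1.16e-07) and the mitochondrial dehydrogenase Idh2 at -2.10 ± 0.22 (adjusted p = 3.03e-06).

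In haem and iron handling 1 of 8 rose and 4 fell in acute injury. The riser was Tfrc, the transferrin receptor, which went from 15.7 ± 7.58 CPM (SD, n = 6) to 297 ± 27.2 CPM (SD, n = 5) (4.37 ± 0.27, adjusted p = 4.07e-08), and the largest fall was that of the biliverdin reductase Blvra (-1.25 ± 0.21, adjusted p = 0.000141). Ftl1, the ferritin light chain, was not called in acute injury (-0.16 ± 0.24, adjusted p = 0.56) or fibrosis (0.25 ± 0.20, adjusted p = 0.268). Of the genes of conjugation, carbonyl reduction and export, 4 of 17 rose and 11 fell, from the exporter Abcc4 (2.14 ± 0.19, adjusted p = 7.12e-07) to the microsomal transferase Mgst3 (-6.26 ± 0.32, adjusted p = 8.37e-09). Among superoxide and peroxide enzymes 1 of 9 rose and 4 fell, with the mitochondrial dismutase Sod2 at 1.85 ± 0.32 (adjusted p = 0.000217) and the extracellular Sod3 at -5.53 ± 0.62 (adjusted p = 5.56e-06). The same genes held the largest rise and fall of these 3 lists and of the NADPH list in fibrosis, with Me1 at 3.15 and Idh2 at -2.40, Tfrc at 4.03 and Blvra at -1.53, Abcc4 at 2.41 and Mgst3 at -5.51, and Sod2 at 1.77 and Sod3 at -4.19, all called. From acute injury to fibrosis 12 of 76 genes rose and 1 fell, beside 10.2% and 0.732% of all genes, and these 13 calls became 5 in a single fit over the 4 CCl4 groups and 21 with no fold threshold. Of the rises 7 were in the conjugation list. The hepatocyte marker sum was also higher in every fibrotic than in every acute library, and its part was not tested.

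**Figure D4:**
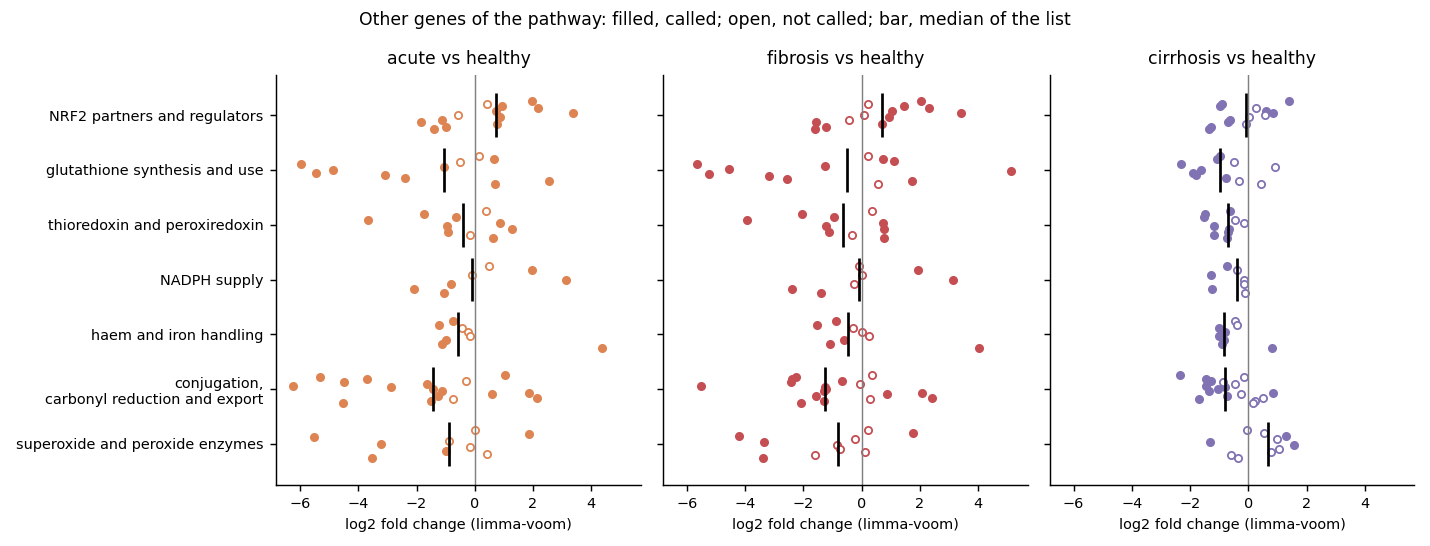
Log2 fold-change of each gene of the 7 other pathway lists against healthy LSECs at the 3 stages, filled where called, with a bar at the median of the list. In acute injury and fibrosis each list spreads to both sides of 0, and in cirrhosis the values draw in and most medians lie below 0.

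In cirrhosis 39 of 76 other pathway genes were called lower than in healthy LSECs and 7 higher, beside 24.7% and 27.1% of all genes. Without TMM scaling 24 were lower and 16 higher, beside 2303 lower and 5724 higher of all 14789 genes tested. Against the 2 healthy libraries low in hepatocyte markers 39 were called in either direction, where the main count was 46. The share of all genes called in that fit was not taken. In the glutathione list 0 of 11 rose and 7 fell, among them Ggt5 (-2.33 ± 0.25, adjusted p = 6.98e-05) and Slc3a2 (-0.96 ± 0.18, adjusted p = 0.000748). In the thioredoxin list 0 of 10 rose and 8 fell, the mitochondrial reductase Txnrd2 most (-1.51 ± 0.21, adjusted p = 0.000174), and Txn1 fell by 0.61 ± 0.17 (adjusted p = 0.00737). The transketolase Tkt (-1.27 ± 0.24, adjusted p = 0.00083) had the largest fall in NADPH supply, where 0 of 7 rose and 3 fell. Ferritin light chain Ftl1 (-1.02 ± 0.20, adjusted p = 0.00114) had the largest in haem and iron handling, where 1 of 8 rose and 5 fell, the riser being Tfrc (0.81 ± 0.27, adjusted p = 0.0196). In the conjugation list 1 of 17 rose and 9 fell, with Gstp1, a cytosolic glutathione transferase, going from 1003 ± 491 CPM (SD, n = 6) to 185 ± 52.6 CPM (SD, n = 6) (-2.34 ± 0.31, adjusted p = 0.000146) and Ugdh, which makes UDP-glucuronate, at 0.83 ± 0.27 (adjusted p = 0.0194). Of NRF2 partners 3 of 13 rose and 6 fell, with the ligase scaffold Cul3 at 1.38 ± 0.38 (adjusted p = 0.00835), Bach1 at 0.84 ± 0.25 (adjusted p = 0.0112) and Dpp3 at -1.35 ± 0.18 (adjusted p = 0.000135). Superoxide and peroxide enzymes were the list with a median above 0, 0.66, and in it the NADPH oxidase subunits Cybb (1.56 ± 0.38, adjusted p = 0.00375) and Cyba (-1.30 ± 0.34, adjusted p = 0.00556) differed in sign. Without TMM scaling 4 of 10 thioredoxin, 2 of 8 haem and iron and 3 of 13 partner genes were lower in cirrhosis, and 6 of 10 superoxide and peroxide enzymes were higher, of which the main count was 2. From fibrosis to cirrhosis 25 of 77 pathway genes rose and 31 fell, beside 34.3% and 29.5% of all genes, the latter including Bach1 (-2.51 ± 0.23, adjusted p = 9.25e-07), Sqstm1 (-2.35 ± 0.11, adjusted p = 3.54e-09), Ftl1 (-1.22 ± 0.12, adjusted p = 1.58e-06), Slc3a2 (-1.13 ± 0.08, adjusted p = 5.11e-08), Txn1 (-0.92 ± 0.09, adjusted p = 1.53e-06) and Mafg (-0.85 ± 0.12, adjusted p = 3.42e-05). From acute injury to cirrhosis 29 of 77 rose and 28 fell, beside 37.6% and 31.8%.

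In the TAA experiment 6 of the 10 genes differed between the groups by label, Keap1 being higher in the group labelled TAA control and 5 lower, beside 27.6% of 14376 genes tested, 12.7% higher and 14.9% lower. In 4 of the 10 the groups did not overlap, beside 35.4% of all genes. Keap1 read 24.7, 22.5, 21.8, 22.3 and 21.0 CPM in control replicates 1 to 5 and 33.4, 30.5, 38.4, 36.8 and 42.1 CPM in TAA control replicates 10, 12, 13, 14 and 15, a log2 difference of 0.68 ± 0.09 (adjusted p = 0.000213) without overlap. Nfe2l2 read 665, 620.4, 728, 659.5 and 663 CPM and 696, 712, 645, 856 and 846 CPM, overlapping and not called at 0.17 ± 0.09 (adjusted p = 0.157). Txnrd1 read 237, 215, 299, 409 and 404 CPM in control and 106, 126, 106, 163 and 163 CPM in TAA control. All 5 TAA control libraries of Txnrd1 lay under all 5 control ones, with a log2 difference of -1.21 ± 0.21 (adjusted p = 0.000803). Nqo1, at 45.2, 43.1, 57.5, 129 and 100.2 CPM against 20.9, 24.9, 21.1, 37.1 and 39.9 CPM, and Gclm, at 17.6, 18.3, 24.3, 30.7 and 31.3 CPM against 13.9, 15.1, 12.4, 14.96 and 14.6 CPM, were also lower in TAA control without overlap, by 1.31 ± 0.33 (adjusted p = 0.00715) and 0.75 ± 0.18 (adjusted p = 0.0049) on the log2 scale.

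Control replicates 1 and 2 stood apart from replicates 3 to 5 in several effectors. Hmox1 read 200.4, 244, 544, 595 and 619 CPM in control and 303, 332, 285, 325 and 322 CPM in TAA control, and its log2 difference was -0.34 ± 0.30 (adjusted p = 0.37), not called. Srxn1 read 7.01, 5.29, 16.1, 18.4 and 20.7 CPM against 5.02, 4.90, 4.87, 6.16 and 7.09 CPM, and Gclc 71.0, 67.4, 145, 125 and 113 CPM against 54.96, 58.8, 52.7, 81.6 and 74.9 CPM. In both, control replicates 1 and 2 fell in the range of TAA control and the others above it. Their log2 differences were -1.11 ± 0.42 (adjusted p = 0.0461) and -0.65 ± 0.22 (adjusted p = 0.032). Either call was lost without control replicate 3, 4 or 5 or TAA control replicate 10, 12 or 13, and that of Srxn1 also without replicate 14 or 15 (adjusted p of 0.0643 to 0.0753 for Gclc and 0.0607 to 0.091 for Srxn1), without a low-count filter (adjusted p = 0.0503) and with replicates 14 and 15 averaged (adjusted p = 0.0645). Those 2 libraries differed by a chi-square of 3.05 per degree of freedom over genes, against at least 25.2 for the other pairs of a group, and were kept as 2 samples. Gsr, at 21.8, 24.2, 25.6, 18.2 and 25.7 CPM against 23.3, 18.6, 23.2, 26.5 and 25.5 CPM, and Slc7a11, at 0.211, 0.631, 0.435, 0.669 and 1.04 CPM against 0.407, 0.801, 0.560, 2.05 and 1.63 CPM, overlapped and were not called (0.01 ± 0.12, adjusted p = 0.933, and 0.70 ± 0.53, adjusted p = 0.296). TAA control replicates 14 and 15 were the highest for Slc7a11, with 52 counts at most.

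**Figure D5:**
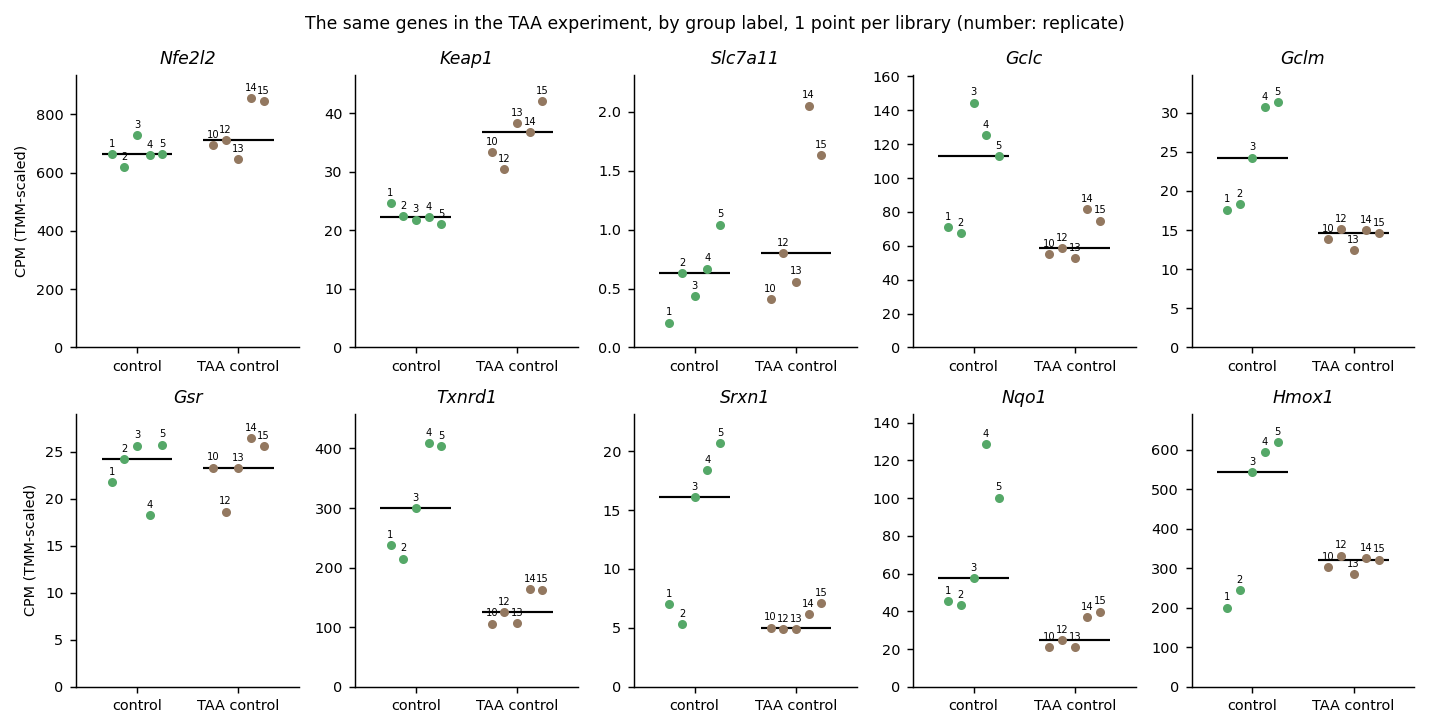
TMM-scaled CPM of the 10 genes in the 10 libraries of the TAA experiment (axes from 0), with replicate numbers beside the points and a bar at the group median. Control replicates 1 and 2 lie below replicates 3 to 5 for Hmox1, Srxn1, Gclc, Gclm, Txnrd1 and Nqo1.

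Of the other pathway genes in the TAA experiment, 8 of 75 were higher and 8 lower in TAA control, beside 12.7% and 14.9% of all genes. The higher ones included the secreted peroxidase Gpx3 (1.64 ± 0.42, adjusted p = 0.00819), Txnip (0.86 ± 0.21, adjusted p = 0.00599), Osgin1 (0.87 ± 0.21, adjusted p = 0.00539), Blvra (0.69 ± 0.10, adjusted p = 0.000348) and Cybb (1.77 ± 0.66, adjusted p = 0.0448), and the lower ones Sod3 (-2.60 ± 0.47, adjusted p = 0.00109), the aldehyde oxidase Aox1 (-2.01 ± 0.17, adjusted p = 1.78e-05), Bach1 (-0.81 ± 0.20, adjusted p = 0.00612) and Prdx4 (-0.69 ± 0.14, adjusted p = 0.00191). In these libraries stellate cell and fibroblast markers summed to 2116 to 5283 CPM in control and 345 to 539.6 CPM in TAA control, hepatocyte markers to 2363 to 5885 and 695 to 1581 CPM, LSEC markers to 22694 to 28146 and 27230.1 to 35829.9 CPM and immediate-early genes to 11727 to 24207 and 37630.2 to 54709 CPM. The LSEC sums overlapped between the groups and the other 3 did not, and their part in the differences was not tested.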

How the data were processed

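Per the labels and the methods of the study, the authors made polyA libraries with a stranded kit (HiSeq2500), aligned reads to Rnor_6.0 with STAR and deposited RSEM expected counts per gene, with FastQC and Trim Galore also named in the submitters' processing notes. Versions are not given in the sources used here. The expected counts were rounded. None of the 320 values of the 10 genes needed it. Libraries held 25646531 to 46464289 counts and groups came from the labels. Each comparison was fitted on its 2 groups alone with limma-voom (limma 3.58.1, edgeR 4.0.16, R 4.3.3), filterByExpr and TMM, and p-values were Benjamini-Hochberg adjusted over all genes tested. The threshold of 1.5-fold was the study's, with an adjusted p in place of its unadjusted one. All 10 genes were named in every comparison, and from the pathway lists the called genes with the largest rise and fall of each list plus the partners Slc3a2, Txn1, Sqstm1, Bach1, Mafg and Ftl1. Genes and lists were chosen with earlier results of these data known. Of 83 listed pathway genes 77 were found once. Alternatives were other tools (edgeR, DESeq2 1.42.0), scalings, filters, thresholds and samples. The fits were tested on simulated data in which few genes changed, equally up and down. That setting differs from these comparisons, so it does not test the scaling here. Replicate numbers were not taken to pair the libraries. Promoter windows were matched by symbol to RefSeq (GRCr8).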

Additional observations from a re-analysis of the deposited data

Results flagged for a closer look

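Among 66 sets of values per group checked for a library far from the others, 4 held one, where chance alone gives about 1 in 20 (3.3 expected). Txnrd1 stood at 180.3 CPM in cirrhosis replicate 2, the other 5 reading 341 to 458 CPM, and at 518 CPM in healthy replicate 3, the others reading 186 to 271 CPM. The total count was 36916992 in acute replicate 4, the others holding 32037715 to 32986854, and 32631606 in control replicate 5 of the TAA experiment, the others holding 27589168 to 28485839.

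Of 87 genes of the pathway, 7 were called in opposite directions against healthy LSECs at different stages. The same count was not made over all genes, so whether 7 of 87 is many is not known. Since they were chosen for these opposite calls against the same healthy libraries, the direction of their difference between stages was fixed by the choice, and the log2 differences are given as a description. Gsr, which rose in acute injury and fibrosis and fell in cirrhosis, differed by -2.18 between cirrhosis and acute injury and by -2.41 between cirrhosis and fibrosis. The p62 adaptor Sqstm1 differed by -1.87 and -2.35. Glutathione synthetase Gss differed by -1.72 and -1.78. Among peroxiredoxins, Prdx3 differed by -1.90 and -1.39, and Prdx6 by -1.34 and -1.43. Gstp1, which rose in acute injury and fell in cirrhosis, differed by -3.33 between these stages. The extracellular superoxide dismutase Sod3 had the opposite order, falling in acute injury and fibrosis and rising by 1.30 in cirrhosis, with differences of 6.85 and 5.54.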

How the results depend on the processing

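Of 1448 values of single genes under the alternatives, 1362 kept their direction and their side of the threshold, 43 lost the call, 18 gained it and 25 changed sign, and of 290 counts 287 stayed within 1.5 times. Shares of all genes called were taken for the main fits and the other scalings, and not for the other alternatives. All sign changes were of values not called. Keap1 in acute injury read 0.0081 by DESeq2, 0.39 without TMM, 0.035 with DESeq2 size factors, 0.088 without a low-count filter and 0.18 against the 2 healthy libraries low in hepatocyte markers, and in fibrosis -0.0066 by edgeR and -0.040 in a single fit over the 4 CCl4 groups. In cirrhosis Srxn1 read 0.15 without TMM and Nqo1 -0.39 against those 2 healthy libraries. Gsr in the TAA experiment read -0.021 without TMM, -0.0039 with DESeq2 size factors and -0.022 with replicates 14 and 15 averaged. With 1 library left out, Keap1 ranged from -0.056 to 0.11 in acute injury and -0.15 to 0.085 in fibrosis, Srxn1 in cirrhosis from -0.38 to 0.14, Gclc between fibrosis and acute injury from -0.15 to 0.055, and Gsr in the TAA experiment from -0.069 to 0.099. The pathway genes called between fibrosis and acute injury numbered 13, 21 with no fold threshold and 5 in a single fit, and in the TAA experiment 16, and 41 with no fold threshold. The cause was not tested. Gclc in cirrhosis was called without cirrhosis replicate 2 (0.66), without healthy replicate 3 (0.64), without TMM (0.89), with a minimum of 1 CPM (0.64) and, like Gclm, with no fold threshold, and Gclm without TMM (0.79). Nfe2l2 in acute injury was called without TMM (0.74, adjusted p = 0.00652).

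Deviations of same-numbered libraries correlated at -0.22 to 0.25, and most libraries did not match their own number best. With so few numbers shared this cannot exclude pairing, and the main fits did not use the numbers as pairs. With the replicate number as a block, 7, 3 and 9 of the 10 genes were called in acute injury and cirrhosis against healthy LSECs and in cirrhosis against acute injury, and 60, 46 and 55 pathway genes. The share of all genes called under the block was not taken. Slc7a11 in cirrhosis (1.41, adjusted p = 0.0601) and Hmox1 between cirrhosis and acute injury (-0.63, adjusted p = 0.21) lost their call under the block, the other calls of the 10 genes not. Slc7a11 in healthy LSECs rests on 6 to 31 counts, which limits its ratios. Groups differ in toxicant time and in some marker sums, though LSEC and hepatocyte sums overlapped between healthy and cirrhotic libraries. The parts of time and of marker sums in the results cannot be told apart in bulk RNA. The same holds for any difference in preparation or sequencing between the groups, which the methods of the study do not state.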
